A study of Mus musculus with 12 samples.

Results

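The 50 genes described here encode the proteins that copy DNA and the enzymes that make deoxynucleotides for it. They were chosen by name from an Ensembl count table of 46983 mouse genes, with earlier results of these data known. All 50 passed the filter that left 15664 genes for testing. Shares over all genes are set beside their counts as description only. RNA-seq had been done on hepatocytes isolated from AEG-1-WT mice and from littermates with the L24K and L25H changes in AEG-1 (the product of Mtdh), a knock-in made by CRISPR/Cas9 on C57BL/6/J and bred by crossing heterozygotes. Cultures received no treatment or CP775146, which activates the nuclear receptor PPARalpha, at 2.5 µM for 24 h (the micro sign is a font code in the labels). The 4 groups held 3 libraries each: untreated wild type, CP775146-treated wild type, untreated knock-in and CP775146-treated knock-in. No vehicle, age or sex is given, the diet of the mice (regular chow, or high-fat for some experiments) is not tied to samples, and nothing says that replicates were separate mice or cultures. P-values therefore measure the spread between libraries, which may be technical, and genotype cannot be told apart from the cell preparations. As a coefficient of variation, that spread was 5.10% in untreated and 5.32% in treated wild type. In the knock-in it was smaller, 2.57% untreated and 2.61% treated, while the main fit shared its estimate of spread over all groups.

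Replication starts at origins bound by the origin recognition complex (Orc1 to Orc6). CDC6 and CDT1 then load the ring-shaped MCM2-7 helicase, a step called licensing, which geminin (Gmnn) blocks by binding CDT1. The kinase CDC7 with its partner DBF4, together with CDC45 and the GINS complex, turns the loaded ring into a moving helicase, after which primase and polymerases alpha, delta and epsilon copy the strands around the PCNA clamp. Ribonucleotide reductase, a complex of the large subunit RRM1 with the small subunit RRM2 or its relative RRM2B, makes deoxynucleotides. Adult hepatocytes in the liver are mostly quiescent, and in growing cells many of these genes are transcribed under E2F factors at entry into S phase.

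Libraries held 26956032 to 34885451 counted reads. Of the 50 genes, 35 had at least 100 counts in every library, while Cdc6, Cdc45 and Fen1 fell below 10 counts in at least 1 library. Mtdh was at 166 ± 8.47 CPM in untreated wild type and 173 ± 1.98 CPM in the untreated knock-in (adjusted p = 0.262, edgeR's quasi-likelihood test), a level that does not show the amino acid changes. CPM are read counts scaled to library size with edgeR's TMM factors. All 10 hepatocyte markers were expressed, and their summed level was 120318 to 127962 CPM in the 6 wild-type libraries against 79860 to 91049 CPM in the 6 knock-in libraries. Summed levels of 12 macrophage, 10 endothelial and 10 stellate cell and fibroblast markers were lower in every knock-in library than in any wild-type library, with ranges of 112 to 168 against 188 to 257 CPM, 54.8 to 74.1 against 84 to 107 CPM, and 68.2 to 123 against 161 to 221 CPM. In each of these lists 1 gene held the largest part of the sum, namely Cd68, Stab2 and Reln. Cd68 was at 103 to 156 CPM in knock-in and 182 to 248 CPM in wild-type libraries. Stab2 was at 21.4 to 36.5 and 51.7 to 70.3 CPM, and Reln at 62.8 to 115 and 153 to 211 CPM. Without these genes the sums overlapped between genotypes for the macrophage markers (8.46 to 12.5 CPM in knock-in, 6.08 to 10 CPM in wild type) and the endothelial ones (32.1 to 37.5 and 30 to 36.3 CPM), and did not for the stellate and fibroblast ones (5.46 to 7.82 and 8.18 to 10.6 CPM). In the untreated comparison 3 of 11 tested macrophage markers rose and 1 fell, with 10 estimates above 0, and 6 of the 12 listed stayed under 1 CPM in every library. Of 9 endothelial markers 2 rose and 2 fell, and of 8 stellate and fibroblast markers none rose and 3 fell. Of the 10 hepatocyte markers 1 rose and 6 fell. Among all genes tested 18.4% rose and 18.6% fell in the same comparison. The 9 cholangiocyte markers summed to 34.2 to 49.7 CPM in wild-type libraries, against 64.2 to 70.6 CPM in knock-in libraries, and 5 of 6 tested rose in the untreated knock-in. Of the 12 lymphocyte and neutrophil markers none passed the filter for testing, and Cd3g, Gzma, Mpo and Retnlg had no count in any library. Marker sums thus moved with genotype, and their part in the results below was not tested. Fewer cells of a type and less RNA per cell cannot be told apart in bulk libraries.

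The promoters below are shown because they belong to the 3 genes with the highest rises in the untreated knock-in that carry an 8-letter E2F sequence, and to Rrm2, which moved the other way. They are RefSeq sequences (GRCm38.p6), written 5′ to 3′. They are limited to bases before the start site that the files' annotation leaves outside exons, except for 12 bases of Orc1. Those 12 exonic bases hold its E2F letters. The Cdc6 and Uhrf1 sequences lie inside the annotated genes, downstream of the first annotated base of each. Capitals mark the E2F letters (TTTCCCGC, TTTCGCGC, TTTGCCGC, TTTGGCGC or their reverse complements) and CCAAT (or ATTGG).
Cdc6, chr11:98907982-98908150, plus strand: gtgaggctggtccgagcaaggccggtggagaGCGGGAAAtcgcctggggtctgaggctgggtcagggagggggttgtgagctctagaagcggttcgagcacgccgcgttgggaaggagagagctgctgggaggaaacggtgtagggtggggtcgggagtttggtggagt
Uhrf1, chr17:56304063-56304312, plus strand: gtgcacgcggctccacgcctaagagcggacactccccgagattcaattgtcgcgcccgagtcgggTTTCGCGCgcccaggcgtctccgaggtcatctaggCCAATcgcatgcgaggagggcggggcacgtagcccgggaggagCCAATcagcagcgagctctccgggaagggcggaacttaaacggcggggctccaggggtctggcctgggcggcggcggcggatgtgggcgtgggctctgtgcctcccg
Orc1, chr4:108579204-108579434, plus strand: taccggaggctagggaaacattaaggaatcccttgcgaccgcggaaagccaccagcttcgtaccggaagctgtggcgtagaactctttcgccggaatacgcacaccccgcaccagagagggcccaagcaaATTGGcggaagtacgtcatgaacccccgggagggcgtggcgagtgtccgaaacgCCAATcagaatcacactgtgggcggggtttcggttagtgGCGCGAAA
Rrm2, chr12:24708004-24708240, plus strand: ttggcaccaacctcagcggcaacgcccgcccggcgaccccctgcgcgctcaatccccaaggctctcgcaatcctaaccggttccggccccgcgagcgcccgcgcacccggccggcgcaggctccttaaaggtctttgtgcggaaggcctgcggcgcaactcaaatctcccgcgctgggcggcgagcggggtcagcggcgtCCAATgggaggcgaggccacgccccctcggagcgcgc
The E2F letters lie 138 bases before the start in Cdc6, 185 in Uhrf1 and 27 in Orc1, and the Rrm2 sequence holds CCAAT but none of the 8-letter E2F forms. It does hold a 7-letter form, without the first T, at 235 to 229 bases before the start, left in lower case here.

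RefSeq promoters were found for 42 of the 50 genes, with Gmnn, Mcm4, Gins1, Gins2, Gins4, Prim2, Pole and Rfc2 unmatched. The 8-letter E2F sequence stood in the 250 bases before the start of 10 of the 42 (23.8%) and of 583 of 27025 genes (2.16%). The 10 were Orc1, Orc3, Cdc6, Mcm5, Mcm6, Mcm7, Gins3, Pola1, Rfc3 and Uhrf1. CCAAT stood before 25 of the 42 (59.5%) against 37.5% of all genes, and TTTGAA, letters within the cell-cycle homology region (CHR), before 6 (14.3%) against 18.3%. A gene counted where any of its start sites had a match, on either strand. In the untreated knock-in against untreated wild type, the 10 genes with the E2F letters had a median log2 fold change of 0.77. Of these, 8 were called higher and Orc3 lower. The 32 without the letters had a median of 0.33, with 19 called higher and 2 lower, where 18.4% and 18.6% of all genes were. With the 7-letter form, 18 of the 42 genes (42.9%, against 9.01% of all) had a match. Their median was 0.53, against 0.26 for the other 24. The 6 genes with TTTGAA also had a median of 0.77, against 0.35 for the other 36. The 25 genes with CCAAT had a median of 0.40, against 0.32 for the other 17. A match is a string of letters and not a bound site.

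The first comparison sets untreated knock-in hepatocytes against untreated wild-type ones. In the untreated knock-in, 32 of the 50 genes rose, 3 fell and 15 were not called. A call is an adjusted p under 0.05 in edgeR's test, with the Benjamini-Hochberg adjustment made over every gene tested. Among all genes, 18.4% rose and 18.6% fell. The median log2 fold change of the 50 genes was 0.38, against −0.00 for all genes tested, and 10 of them, against 3.01% of all genes, rose at least 2-fold. Highest were the licensing factor Cdc6, the methylation-maintenance factor Uhrf1, the origin gene Orc1 and the helicase gene Mcm5. Lowest was Rrm2. The plot of genotype effects by role shows the helicase, helicase-activation and polymerase epsilon genes mostly to the right of 0 and the clamp-loader and, apart from Orc1, the origin recognition genes close to it.

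**Figure D1:**
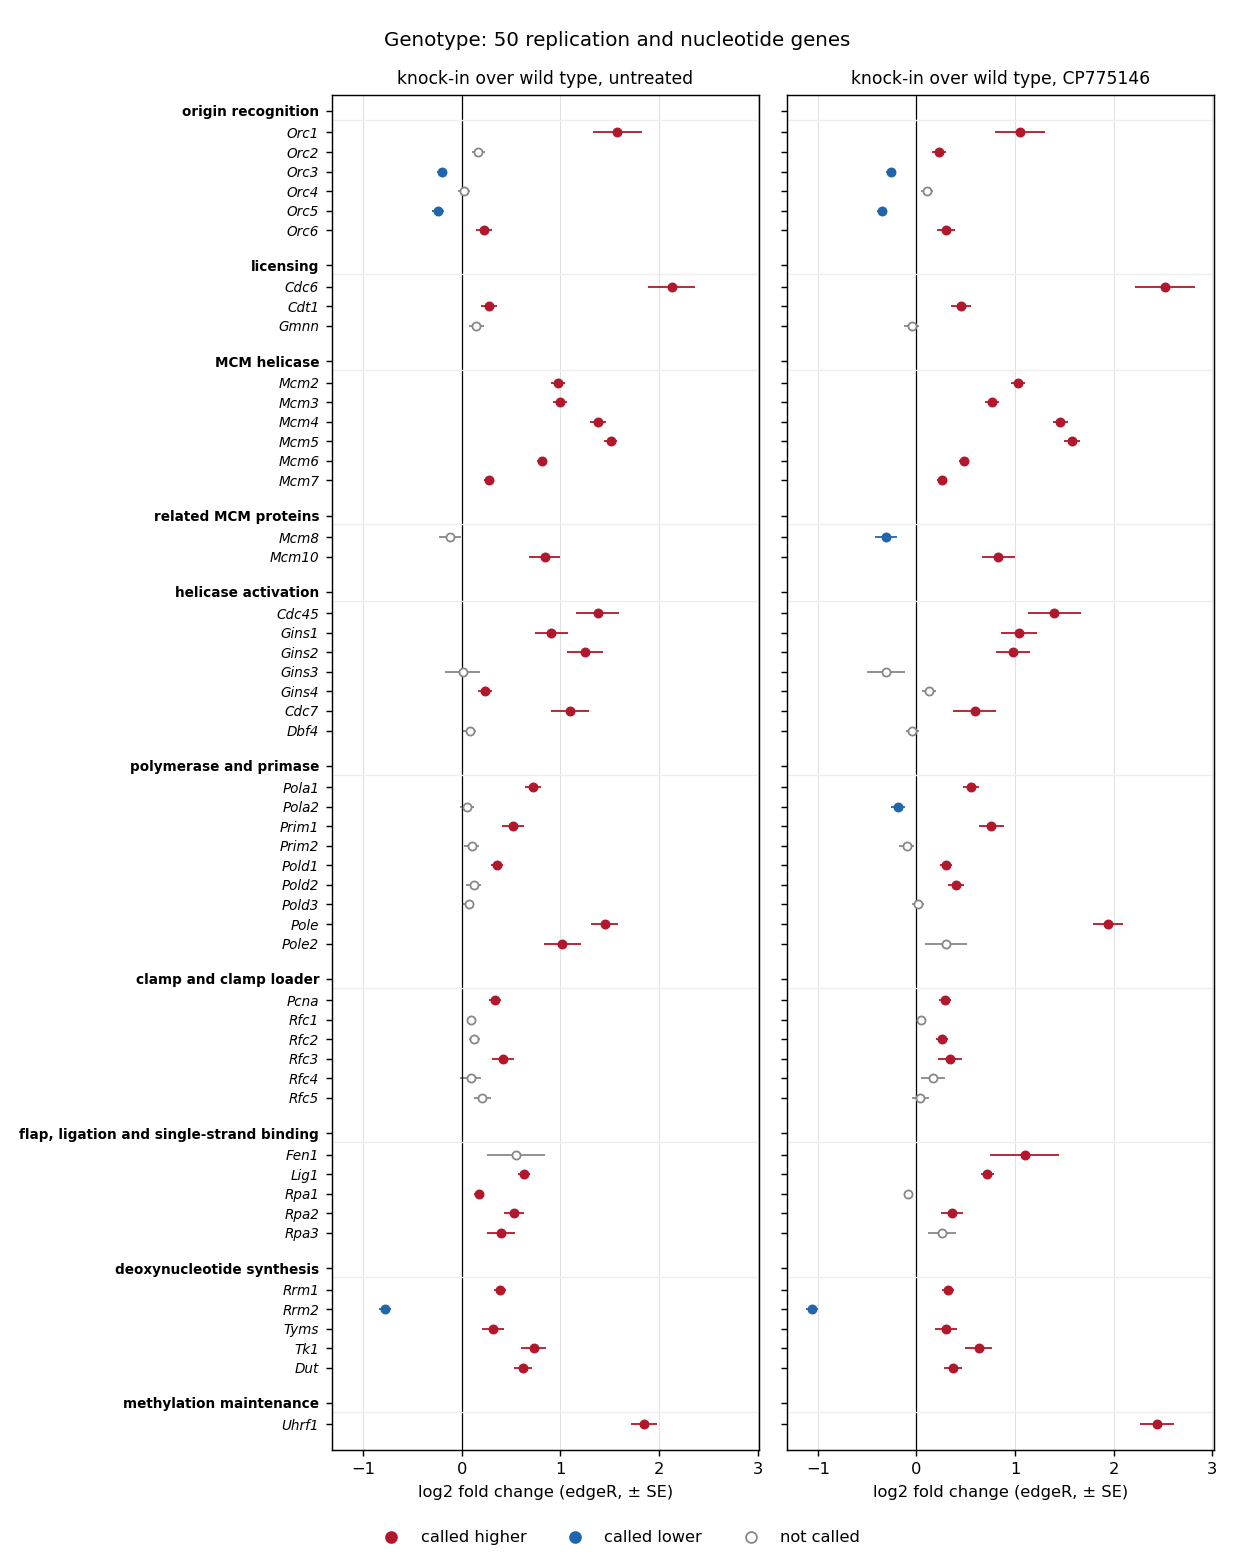
Log2 fold change of knock-in over wild type for the 50 genes, grouped by role, in untreated cells (left) and CP775146-treated cells (right); points are edgeR estimates and bars 1 SE, filled red where called higher, filled blue where called lower and open where not called. Cdc6 and Uhrf1 lie farthest right in both panels and Rrm2 farthest left.

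In the origin recognition complex, 2 of the 6 genes rose, 2 fell and 2 were not called. Orc1 (chr4:108579423-108614833), an ATPase subunit, held 0.476, 0.564 and 0.573 CPM in untreated wild type and 1.67, 1.31 and 1.85 CPM in the untreated knock-in. Its groups did not overlap, and it rose by 1.58 ± 0.25 log2 (SE; adjusted p = 5.45e-06). Orc3 and Orc5, subunits at higher levels, moved the other way. Orc5 was at 29.5, 27.9 and 28.3 CPM in wild type, against 23.4, 24.8 and 24.5 CPM in the knock-in (fell by 0.24 ± 0.06 log2, adjusted p = 0.00105), and Orc3 at 35.9, 35.2 and 34.1 against 31.4, 30 and 30.1 CPM (fell by 0.20 ± 0.05 log2, adjusted p = 0.00162). All knock-in libraries were below all wild-type ones for both. The fall of Orc3 was not called when libraries were scaled by total counts alone (adjusted p = 0.107). Orc6 rose by 0.23 log2, a call that DESeq2 did not make, and Orc2 and Orc4 lay at 0.17 and 0.02 log2 without a call. Of the exonic length of Orc1, 10.8% overlaps Gm12743 on the other strand, and of Orc2, 29.8% overlaps Nif3l1.

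Of the 3 licensing genes, 2 rose and none fell. Cdc6 (chr11:98907801-98923940 in GRCm38) was at 0.44, 0.639 and 0.537 CPM in untreated wild type and 2.46, 2.32 and 2.3 CPM in the untreated knock-in. Every knock-in library lay above every wild-type one, for a rise of 2.13 ± 0.24 log2, or 4.36-fold (adjusted p = 1.65e-08). These are 12 to 17 counts a library in wild type against 76 to 81. Cdt1, the other loader, rose by 0.28 ± 0.08 log2, from 11 ± 1.47 to 13.3 ± 0.303 CPM, and its inhibitor Gmnn was at 9 ± 0.738 and 10 ± 0.37 CPM without a call (adjusted p = 0.141). Cdc6 has a processed pseudogene, Gm9430, that is 95.2% identical over 1528 bases, so reads may be split between them. Gm9430 held 33 counts and Cdc6 440 over the 12 libraries.

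All 6 genes of the MCM2-7 ring rose, by unequal amounts. Mcm5 (chr8:75109528-75128439) was at 6.78, 6.99 and 7.02 CPM in untreated wild type and 19.2, 19.7 and 20.2 CPM in the untreated knock-in, a rise of 1.51 ± 0.07 log2 (adjusted p = 1.41e-16) with no overlap. Mcm2 held 16.4, 15.7 and 15.9 against 32.6, 30.2 and 31.8 CPM and rose by 0.98 ± 0.07 log2 (adjusted p = 3.93e-13). Mcm6 was at 34.9, 32.3 and 33.8 against 60.5, 59.6 and 57.5 CPM (0.81 ± 0.05 log2). Mcm4 rose by 1.38 and Mcm7 by 0.28 log2, and Mcm3 rose from 11.3 ± 0.575 to 22.6 ± 1.39 CPM. The ring holds 1 copy of each subunit. Per kilobase of exonic length, the highest of the 6 stood 3.39 to 3.78 times above the lowest in untreated wild-type libraries and 2.7 to 2.94 times in untreated knock-in libraries. That length covers all annotated exons of a gene and not 1 transcript, so these ratios between genes do not show the balance of subunits. Their summed level was 102 ± 1.56 CPM and 187 ± 2.64 CPM. Mcm10, which acts in helicase activation despite its name, rose by 0.84 log2, and Mcm8, a helicase of recombination repair, was not called (adjusted p = 0.461). Mcm7 has a processed pseudogene, Gm5487, 97.7% identical over 2157 bases, and 7.25% of its exonic length overlaps Ap4m1 on the other strand.

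**Figure D2:**
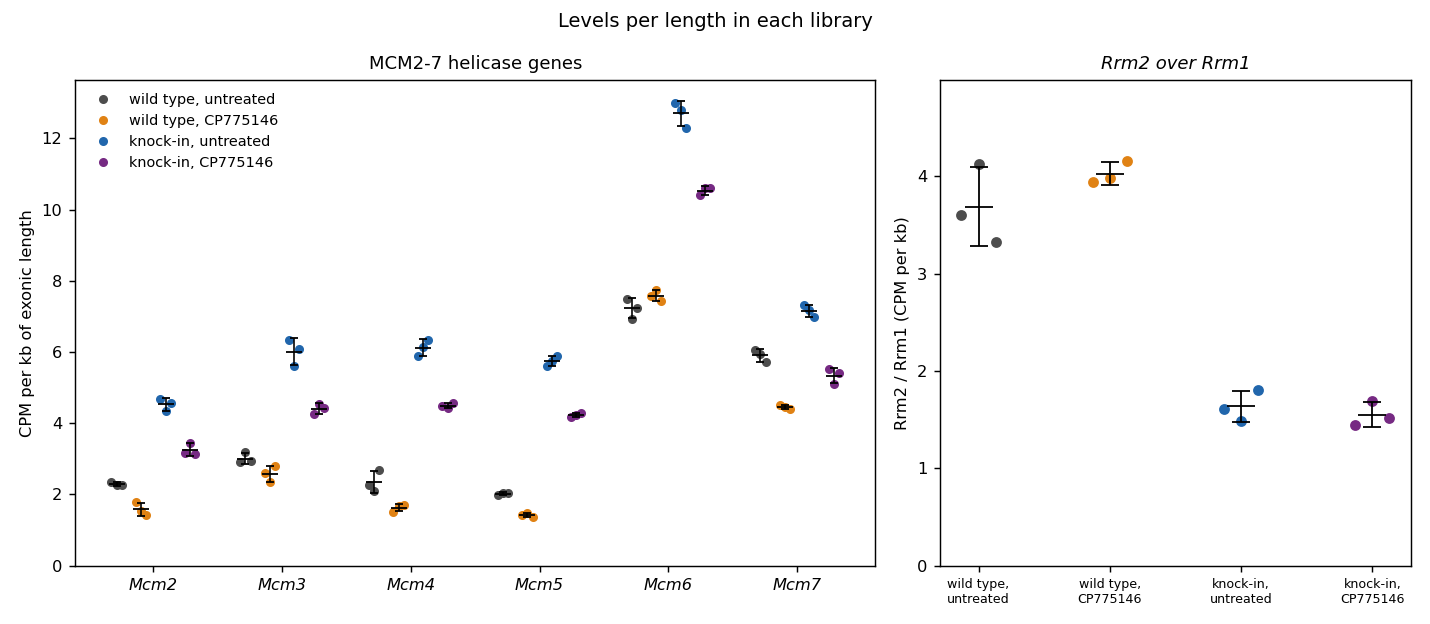
Left: CPM per kilobase of exonic length of Mcm2 to Mcm7 in each of the 12 libraries (points; bars are mean ± SD of 3). Right: the ratio of Rrm2 to Rrm1 on the same scale; it lies between 3.33 and 4.16 in the wild-type libraries and between 1.45 and 1.81 in the knock-in libraries.

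Helicase activation showed 5 of 7 genes higher and none lower. Cdc45 rose by 1.38 ± 0.22 log2 (0.977 ± 0.0538 to 2.56 ± 0.233 CPM), Gins2 by 1.25, the kinase gene Cdc7 by 1.10, Gins1 by 0.91 and Gins4 by 0.24. Cdc7 was at 1.54, 0.939 and 1.43 CPM in wild type, against 2.74, 3.18 and 2.53 CPM in the knock-in, with no overlap. Its regulatory partner Dbf4 was at 16 ± 0.801 and 17 ± 0.243 CPM and was not called (adjusted p = 0.349), nor was Gins3 (0.01 log2). Without strand in the counting, 67.3% of the exonic length of Gins2 overlaps Gse1 on the opposite strand and 9.28% of Cdc45 overlaps Ufd1, so their levels are uncertain.

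Of 9 polymerase and primase genes, 5 rose and none fell. The catalytic subunit of the leading-strand polymerase, Pole, was at 3.33, 5.67 and 3.72 CPM in untreated wild type and 10.6, 12.1 and 12.1 CPM in the knock-in. Its groups did not overlap, and the rise was 1.45 ± 0.14 log2 (adjusted p = 1.15e-08). Pole2, its second subunit, held 1.14, 1.09 and 1.11 against 2.46, 2.08 and 2.24 CPM (1.02 ± 0.19 log2). Catalytic subunits rose in the other polymerases too, Pola1 by 0.72, Prim1 by 0.52 and Pold1 by 0.36 log2, whereas the partner subunits Pola2, Prim2, Pold2 and Pold3 were not called, at 0.05, 0.10, 0.12 and 0.07 log2. Pold2 was at 11.1, 11.1 and 9.78 against 12, 11.1 and 11.5 CPM.

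The clamp gene Pcna was at 19.5, 20.8 and 18 CPM in untreated wild type and 25.1, 24.7 and 24.2 CPM in the untreated knock-in, a rise of 0.34 ± 0.06 log2 (adjusted p = 2.65e-05) with no overlap. Its pseudogene Pcna-ps2, 99.2% identical over 781 bases, took 3866 counts over the 12 libraries against 7517 for Pcna, so the split between the pair is uncertain. Of the 5 clamp-loader genes only Rfc3 was called (0.42 log2). Rfc1, Rfc2, Rfc4 and Rfc5 lay at 0.09 to 0.21 log2. Behind the fork, the ligase gene Lig1 rose by 0.63 log2 and the single-strand-binding genes Rpa2, Rpa3 and Rpa1 by 0.53, 0.40 and 0.18. Rpa1, the large subunit, was at 52.1, 49.3 and 48.6 against 56, 56.1 and 58.3 CPM. Fen1, the flap nuclease, had 13 to 34 counts a library here, and 78.8% of its exonic length overlaps Gm10143 on the other strand. It was not called (0.55 ± 0.29 log2, adjusted p = 0.140).

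Nucleotide synthesis genes rose except Rrm2. Thymidine kinase Tk1 was at 2.53, 3.16 and 2.97 CPM in untreated wild type and 5.39, 4.52 and 4.49 CPM in the knock-in (0.73 ± 0.13 log2, adjusted p = 5.8e-05). Thymidylate synthase Tyms held 6.45, 5.45 and 6.84 against 8.61, 7.45 and 7.36 CPM (0.32 ± 0.11 log2, adjusted p = 0.0192), and the dUTPase gene Dut rose by 0.62 log2. Neither Tk1 nor Tyms overlapped between the groups. The reductase subunits moved apart. Rrm1 was at 23.7, 22.2 and 23.8 against 31.8, 30.5 and 29.2 CPM (0.39 ± 0.06 log2, adjusted p = 1.18e-06). Rrm2 (chr12:24708241-24714146) was at 59.1, 63.6 and 55 CPM in wild type, against 35.4, 31.5 and 36.7 CPM in the knock-in, so it fell by 0.78 ± 0.06 log2 (adjusted p = 5.48e-11), and every knock-in library was below every wild-type one. Per length, Rrm2 stood first of the 50 genes in untreated wild type, at 21.4 CPM per kb, and second in the untreated knock-in, at 12.5. This order depends on the exonic lengths used. The ratio of Rrm2 to Rrm1 per length was 3.69 ± 0.405 in untreated wild type and 1.64 ± 0.163 in the knock-in (exact two-sided permutation p = 0.1, the smallest that 3 against 3 libraries allow). Rrm2b, the other small subunit, was at 7.44 ± 0.569 and 7.34 ± 0.614 CPM (adjusted p = 0.894). Rrm2 shares 419 bases at 95.5% identity with the pseudogene Gm48455.

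Uhrf1 (chr17:56303321-56323486), which brings the maintenance methylase to newly copied DNA, was at 2.82, 2.89 and 3.15 CPM in untreated wild type and 10.3, 10.4 and 11.3 CPM in the untreated knock-in. The groups were far apart, and the rise was 1.85 ± 0.13 log2, or 3.6-fold (adjusted p = 1.01e-12). Its pseudogene Gm5648 is 98.3% identical over 1590 bases and held 281 counts over the 12 libraries, against 1995 for Uhrf1.

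Leaving out 1 library ended the calls of 4 genes in the untreated comparison. Cdt1 was not called without the third untreated wild-type library (0.19 log2, adjusted p = 0.0909). Orc6 was not called without the first untreated wild-type or the second or the third untreated knock-in library (adjusted p 0.0523 to 0.15), Rpa3 without the second untreated wild-type or the first or second untreated knock-in library (0.0675 to 0.163), and Tyms without the second untreated wild-type or the first untreated knock-in library (0.113 and 0.117). Under total-count scaling 41 genes rose and 2 fell, where 32.1% of all genes rose and 11% fell. The rising share of calls over all genes went from 49.7% to 74.5%.

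**Figure D3:**
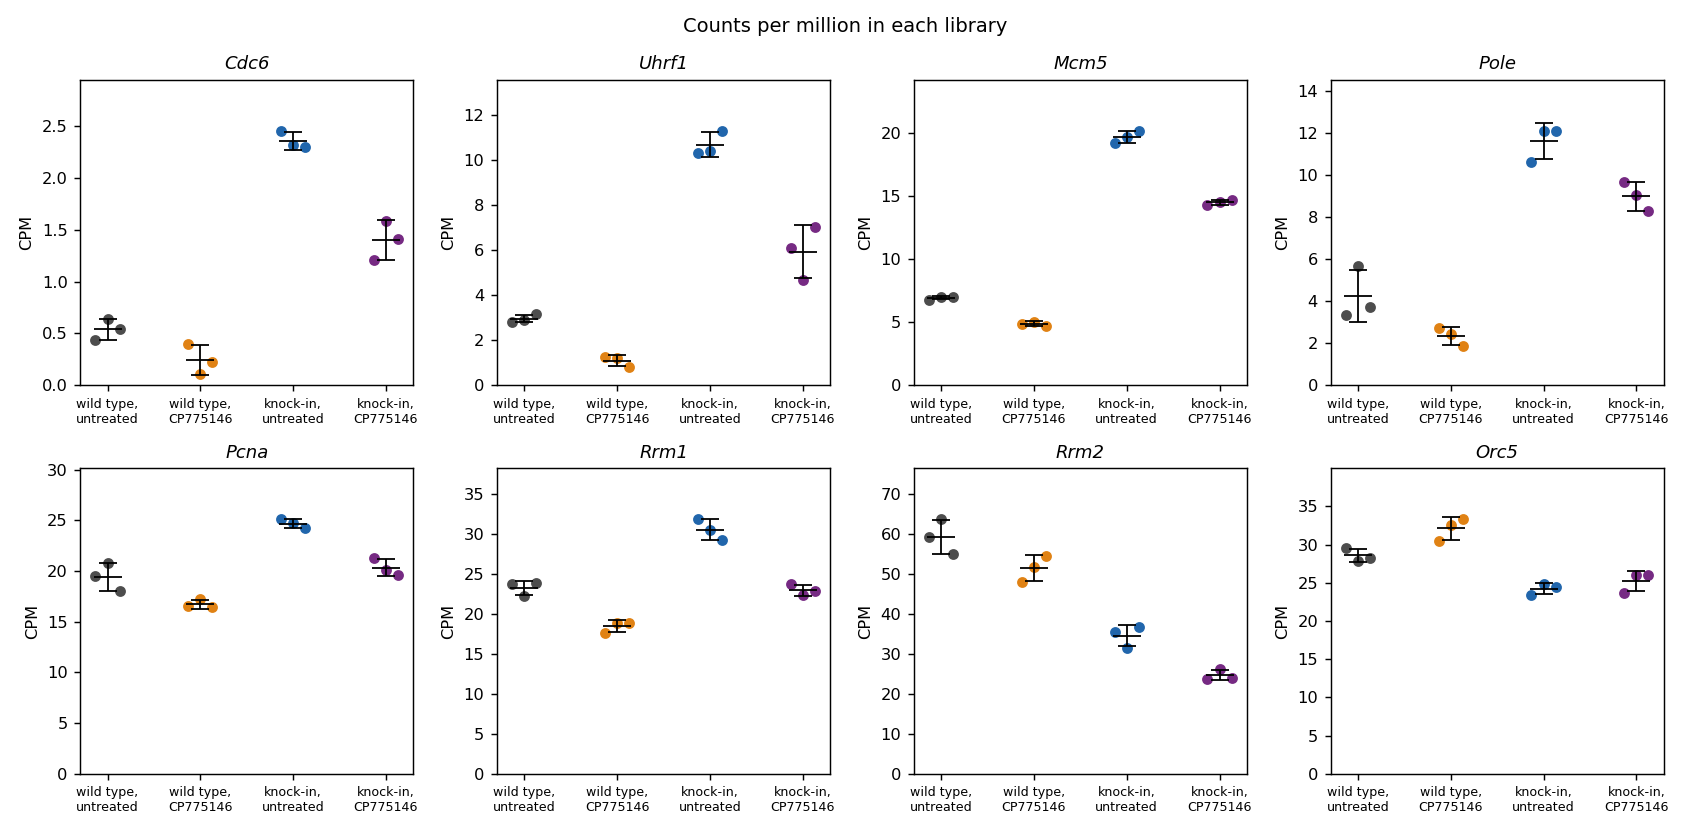
CPM of 8 of the genes in each of the 12 libraries (points), with the mean and SD of each group of 3 as bars. Cdc6, Uhrf1, Mcm5 and Pole are lowest in treated wild type and highest in the untreated knock-in, while Rrm2 and Orc5 are lower in the knock-in.

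Genotype with CP775146 compares the treated groups with each other and shares no library with the untreated comparison. Again 32 of the 50 genes rose, 5 fell and 13 were not called, where 20.5% of all genes rose and 22% fell. The median was 0.31 log2, against −0.01 for all genes. In both comparisons 28 genes rose, 87.5% of each list. Orc3, Orc5 and Rrm2 fell in both, 100% of the falls without CP775146 and 60% of those with it. The matching overlap over all genes is not given here. Gins4, Pole2, Rpa1 and Rpa3 were called higher without CP775146 and not with it, and Orc2, Pold2, Rfc2 and Fen1 with it and not without it. The interaction, the test of such a difference, called only Rpa1 of these 8.

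The highest rises in treated cells were again Cdc6 and Uhrf1, then Pole and Mcm5. Cdc6 was at 0.394, 0.102 and 0.223 CPM in treated wild type (12, 3 and 6 counts) and 1.21, 1.59 and 1.41 CPM in the treated knock-in, a rise of 2.52 ± 0.30 log2 (adjusted p = 4.8e-08). Uhrf1 was at 1.25, 1.19 and 0.818 against 6.09, 4.66 and 7.04 CPM (2.44 ± 0.17 log2, adjusted p = 5.66e-13). Pole held 2.69, 2.42 and 1.86 against 9.65, 9.02 and 8.27 CPM (1.94 ± 0.15 log2). None of these groups overlapped. Mcm5 rose by 1.58 ± 0.08 log2, from 4.86, 5.04 and 4.65 to 14.3, 14.5 and 14.7 CPM, and Orc1 by 1.05 ± 0.25, from 0.591, 0.715 and 0.483 to 1.37, 1.38 and 1.01 CPM.

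Rrm2 was again the lowest, at 0.48-fold of treated wild type. It was at 48, 51.7 and 54.5 CPM in treated wild type and 23.8, 26.1 and 24 CPM in the treated knock-in (fell by 1.06 ± 0.06 log2, adjusted p = 2.19e-13), and its ratio to Rrm1 per length was 4.03 ± 0.118 and 1.55 ± 0.122. Orc5 was at 30.4, 32.6 and 33.3 against 23.7, 26 and 26 CPM (fell by 0.35 log2) and Orc3 at 38.8, 41.2 and 38.3 against 34, 32.4 and 32.3 CPM (fell by 0.26 log2), neither with overlap. Mcm8 was at 5.16, 4.83 and 4.54 against 4.38, 3.74 and 3.66 CPM (fell by 0.31 ± 0.11 log2, adjusted p = 0.0255), and Pola2 fell by 0.19 log2 (adjusted p = 0.0307). The last pair was called by neither DESeq2 nor total-count scaling, and limma voom did not call Pola2.

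Among the other genes, Pold2 was at 11.3, 9.7 and 10.2 CPM in treated wild type and 14.1, 13.1 and 13.9 CPM in the treated knock-in, a rise of 0.40 ± 0.08 log2. Pole2 did not pass the test in treated cells (1.05, 0.953 and 0.967 against 0.952, 1.56 and 1.15 CPM, adjusted p = 0.266). Fen1 rose by 1.10 ± 0.35 log2 (0.296, 0.204 and 0.372 against 0.54, 0.613 and 0.704 CPM, adjusted p = 0.0124). Leaving out 1 treated library ended 7 calls. They were Cdc7 (also not called by DESeq2 or limma voom; without the first or second knock-in or second wild-type library, adjusted p 0.0908 to 0.203), Fen1 (the third knock-in or second wild-type library, up to 0.0661), Rfc3 (the first or the third knock-in or second wild-type, up to 0.133) and Rpa2 (the third knock-in library, 0.0647). The others were Tyms and Mcm8 (the second or the third knock-in, first or second wild-type, up to 0.117 and 0.121) and Pola2 (any knock-in or the second wild-type library, up to 0.254). With total-count scaling 38 genes rose and 3 fell, where 38% of all genes rose and 11.9% fell. The rising share of calls over all genes moved from 48.3% to 76.1% and the median of all genes from −0.013 to 0.124 log2.

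With CP775146, 19 of the 50 genes fell and 3 rose in wild-type hepatocytes, and 28 were not called. Among all genes 22.3% fell and 22.7% rose, and the medians were −0.16 log2 for the 50 genes and −0.01 for all genes. Uhrf1, Cdc6, Fen1 and Pole fell most. The small rises were in Rpa1, Orc3 and Orc5. This comparison and the next are shown in the plot of CP775146 effects.

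**Figure D4:**
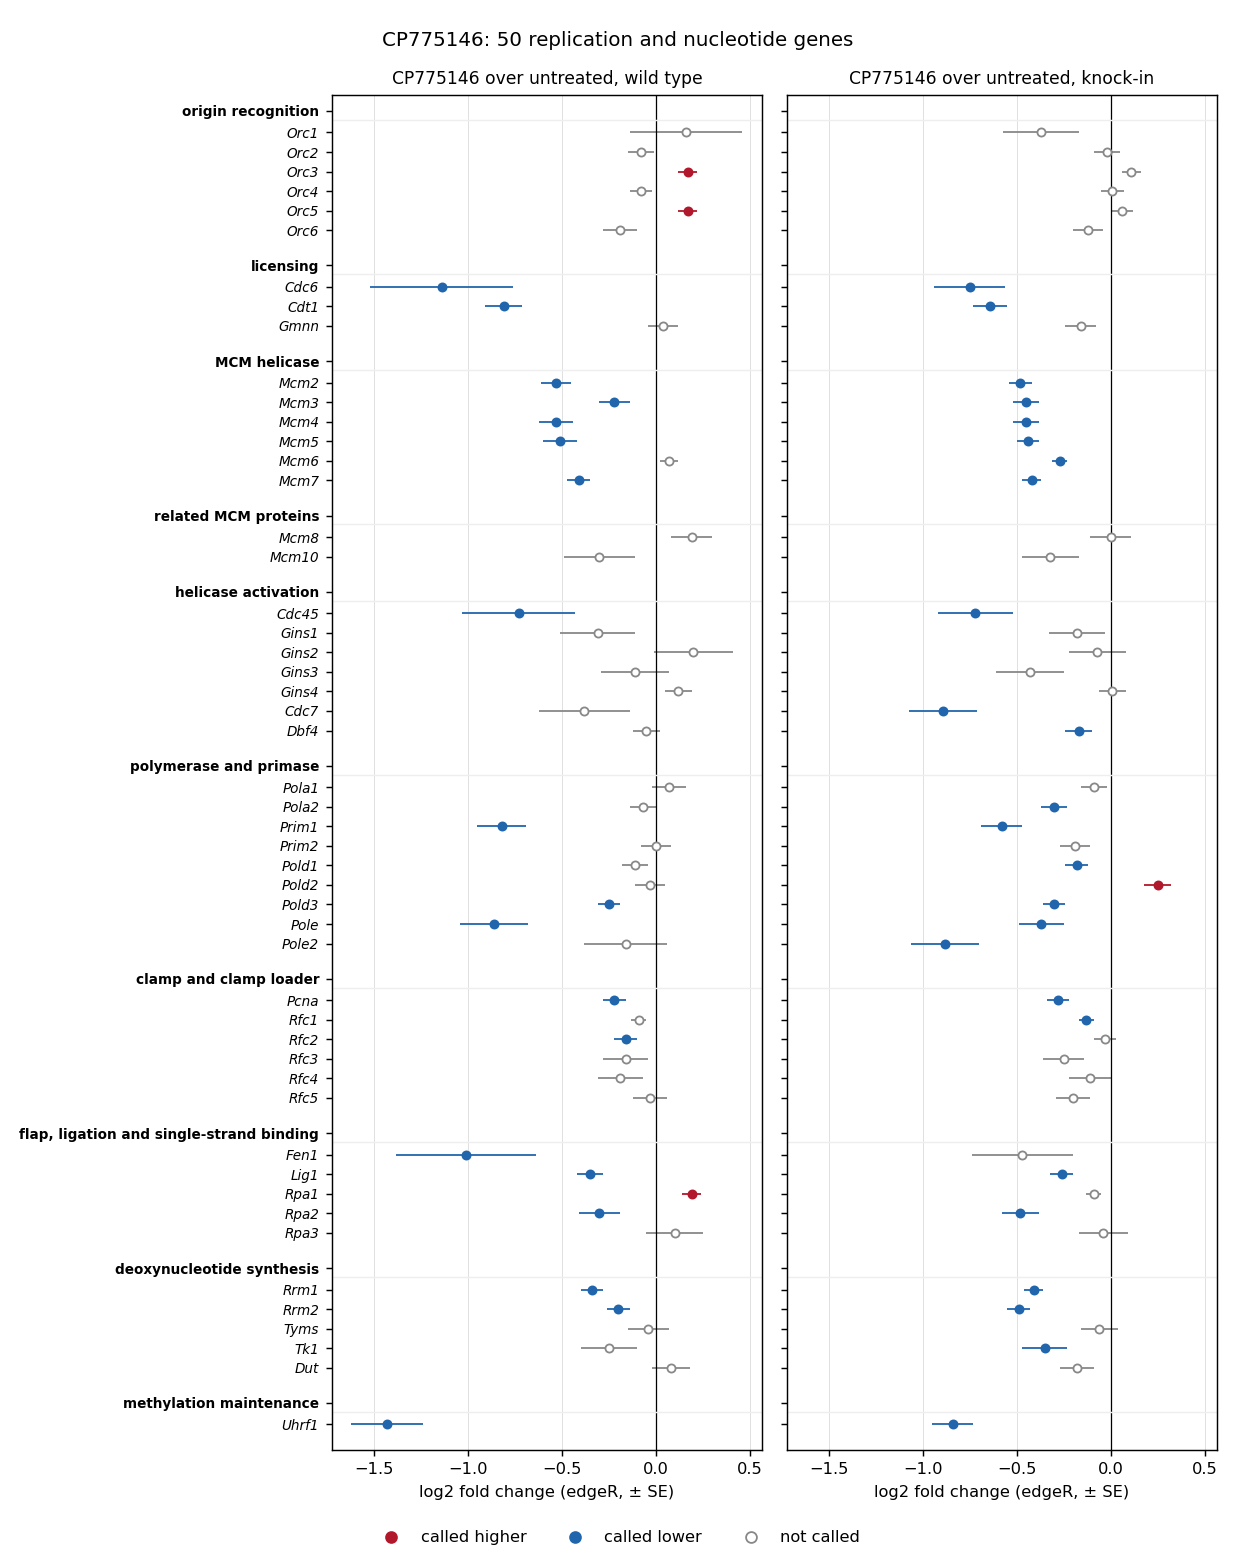
Log2 fold change of CP775146-treated over untreated cells for the 50 genes by role, in wild type (left) and knock-in (right); points are edgeR estimates and bars 1 SE, coloured by call. Most called genes lie left of 0 in both panels.

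Uhrf1 fell by 1.43 ± 0.19 log2 in wild type, from 2.82, 2.89 and 3.15 to 1.25, 1.19 and 0.818 CPM (adjusted p = 3.95e-07), with no overlap. Cdc6, already low, fell by 1.14 ± 0.38 log2 (adjusted p = 0.0142), and Pole by 0.86 ± 0.18 log2 (adjusted p = 0.000446). Primase gene Prim1 fell by 0.82 and Cdt1 by 0.81 log2, Cdt1 from 11 ± 1.47 to 6.23 ± 0.27 CPM (adjusted p = 3.83e-08). Gmnn was at 9 ± 0.738 and 9.26 ± 0.208 CPM and not called (adjusted p = 0.731), and the ratio of Gmnn to Cdt1 per length was 1.25 ± 0.27 in untreated and 2.22 ± 0.137 in treated wild type.

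In the helicase ring 5 of 6 genes fell in wild type. Mcm2 was at 12.5, 10.8 and 9.89 CPM with CP775146, below all 3 untreated libraries (fell by 0.53 ± 0.08 log2, adjusted p = 9.9e-07). Mcm4 and Mcm5 fell by 0.53 and 0.51, Mcm7 by 0.41 and Mcm3 by 0.22 log2. Mcm6 was at 35.3, 36.1 and 34.6 CPM against 34.9, 32.3 and 33.8 CPM and was not called (adjusted p = 0.254). The ring's highest-to-lowest ratio per length was 5.35 ± 0.104 in treated wild type against 3.57 ± 0.198 in untreated.

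Pcna was at 16.5, 17.2 and 16.4 CPM with CP775146 (fell by 0.22 ± 0.06 log2, adjusted p = 0.00533), below its untreated libraries. Rrm1 was at 17.6, 18.8 and 18.9 CPM (fell by 0.34 log2, adjusted p = 2.41e-05) and Rrm2 fell by 0.20 log2 (adjusted p = 0.00618), both without overlap. Tyms (5.55, 5.75 and 6.95 CPM) and Tk1 (2.76, 2.45 and 2.05 CPM) overlapped their untreated levels and were not called (adjusted p = 0.785 and 0.196). Lig1, Pold3 and Rpa2 fell by 0.35, 0.25 and 0.30 log2. Rpa1 rose to 54.6, 59.1 and 57.9 CPM (0.19 ± 0.05 log2, adjusted p = 0.000859), and Orc3 and Orc5 by 0.17 log2 each. Those 3 rises were not called under total-count scaling (adjusted p = 0.0843, 0.253 and 0.306), where 25 genes fell, beside 34.1% of all genes. The rising share of calls over all genes moved from 50.4% to 30.6% and the median of all genes from −0.005 to −0.104 log2.

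Calls at low depth or small size depended on single libraries in wild type. Without the second treated library Cdc6, Fen1, Mcm3 and Rpa2 were not called, and without the second untreated library Cdc6, Mcm3, Pcna, Rpa2 and Rrm2 were not (adjusted p 0.0507 to 0.151 in the cases named here). Fen1 was also lost without the first treated or the third untreated library, Rpa2 without the first treated and Orc5 without the third treated (adjusted p = 0.0729). Cdc45 (fell by 0.73 log2, adjusted p = 0.0486) and Rfc2 (fell by 0.16 log2, adjusted p = 0.0415) lost their calls in 11 and 9 of the 12 such fits. DESeq2 did not call Cdc45, Rfc2 or Fen1 in wild type, and limma voom did not call Cdc45, Fen1, Mcm3 or Rpa2. Fits of only these 2 groups did not call Cdc45, Rfc2, Mcm3 or Rpa2, and without a filter on low counts Rfc2 was not called.

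In knock-in hepatocytes 25 of the 50 genes fell with CP775146, 1 rose and 24 were not called. Among all genes 19.1% fell and 18.1% rose. The median of the 50 was −0.26 log2 and that of all genes −0.01. The comparisons in wild type and knock-in share no library, but come from the same fit with 1 estimate of the spread. In both, 17 genes fell, 89.5% of those that fell in wild type and 68% of those that fell in the knock-in. How many of all genes fell in both is not given here. Cdc7 and Pole2 fell most, followed by Uhrf1 and Cdc6.

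Cdc7 was at 1.62, 1.63 and 1.32 CPM in the treated knock-in against 2.74, 3.18 and 2.53 CPM untreated (fell by 0.89 ± 0.18 log2, adjusted p = 2.33e-04), and Pole2 at 0.952, 1.56 and 1.15 against 2.46, 2.08 and 2.24 CPM (fell by 0.88 ± 0.18 log2, adjusted p = 2.07e-04). Neither overlapped. Uhrf1 fell by 0.84 ± 0.11 log2 to 6.09, 4.66 and 7.04 CPM, and Cdc6 by 0.75 ± 0.19 to 1.21, 1.59 and 1.41 CPM. Cdc45 and Cdt1 fell by 0.72 and 0.64 log2. All 6 helicase genes fell, by 0.27 to 0.48 log2, Mcm2 to 22, 24.1 and 21.9 CPM and Mcm6 to 48.4, 49.6 and 49.5 CPM.

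In the knock-in both reductase subunits fell, Rrm1 by 0.41 ± 0.05 log2 to 23.7, 22.3 and 22.8 CPM and Rrm2 by 0.49 ± 0.06 log2 to 23.8, 26.1 and 24 CPM. All treated libraries were below the untreated ones for each, and their ratio per length was 1.64 ± 0.163 before and 1.55 ± 0.122 with CP775146 (exact two-sided permutation p = 0.6). Tk1 fell by 0.35 log2 to 3.97, 3.31 and 3.97 CPM (adjusted p = 0.0248) and Tyms, at 6.79, 8.13 and 7.51 CPM, was not called. Pcna fell by 0.28 ± 0.06 log2 to 21.3, 20.1 and 19.6 CPM. Pold2 alone rose, from 12, 11.1 and 11.5 to 14.1, 13.1 and 13.9 CPM (0.25 ± 0.07 log2, adjusted p = 0.00785).

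Without 1 library, 5 of the calls in the knock-in were lost. Tk1 went without the first untreated or second treated library (adjusted p 0.136 and 0.155), Pole without the second or the third untreated or the third treated (0.0634 to 0.083) and Rfc1 without the first untreated (0.0566). Pold1 went without the first or second untreated or the second or the third treated library (0.0576 to 0.0847), and Dbf4 without any untreated knock-in, the first or second treated knock-in, or the third treated wild-type library (0.056 to 0.184). DESeq2 called neither Tk1 nor Dbf4, and without a filter on low counts Dbf4 was not called. Under total-count scaling 33 genes fell, beside 27.8% of all genes, with the rising share of calls over all genes moving from 48.7% to 32.2%.

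Treated knock-in libraries can also be set against untreated wild type. In 21 of the 50 genes, among them Cdc6, Uhrf1, Orc1, Mcm2 to Mcm6, Cdc45, Pole, Lig1 and Tk1, every treated knock-in library was above every untreated wild-type library, as were 29.4% of all genes tested. For 8 genes (Orc3, Orc5, Cdt1, Mcm7, Gins3, Pola2, Pold3 and Rrm2) every treated knock-in library was below, again against 29.4% of all. Orc4, Gmnn, Gins3, Prim2, Rfc4 and Rfc5 were called in none of the 4 comparisons. The 50 genes summed to 685 ± 7.55 CPM in wild type without CP775146 and to 636 ± 11 CPM with it, and in the knock-in to 837 ± 9.71 and 718 ± 6.87 CPM.

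Whether the response to CP775146 differed by genotype was tested by the interaction of the 2 factors. None of the 50 genes was called higher and 2 were called lower, Mcm6 and Rpa1, where 2.78% and 4.33% of all genes were. At an unadjusted p below 0.05 the number was 9, a share of the 50 near the 20.1% of all genes. Mcm6 was not called in wild type (0.07 ± 0.05 log2) and fell by 0.27 ± 0.04 log2 in the knock-in, an interaction of −0.34 ± 0.06 (adjusted p = 9.49e-04). Rpa1 rose by 0.19 ± 0.05 log2 in wild type and lay at −0.09 ± 0.04 in the knock-in (53.5, 52.4 and 54.7 CPM, adjusted p = 0.134), an interaction of −0.28 ± 0.06 (adjusted p = 0.00497). For Rrm2 the interaction was −0.28 ± 0.09 log2 (adjusted p = 0.0503), for Uhrf1 0.59 ± 0.23 (0.122) and for Pole2 −0.72 ± 0.29 (0.143).

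Other genes of the pathway were read from lists, also chosen with earlier results of these data known. Of 28 further fork and origin factors, 13 rose and 3 fell in the untreated knock-in (18.4% and 18.6% of all genes), with a median of 0.17 log2. Among them were Pold4, a small polymerase delta subunit, from 19.1 ± 0.806 to 34.6 ± 0.672 CPM (0.86 ± 0.05 log2), the cohesin acetyltransferase gene Esco2 from 0.145 ± 0.0945 to 1.75 ± 0.265 CPM, and the checkpoint adaptor Clspn from 0.515 ± 0.155 to 2.68 ± 0.444 CPM. With CP775146, 3 rose and 8 fell in wild type (22.7% and 22.3% of all genes). In the knock-in 2 rose and 10 fell (18.1% and 19.1% of all genes). Pold4 was among those that rose, to 28.7 ± 0.0373 CPM in wild type, against 47.9 ± 1.88 CPM in the knock-in. The nuclease-helicase gene Dna2 fell by 0.58 ± 0.06 log2 in wild type and by 0.31 ± 0.06 in the knock-in, and its interaction was the only 1 of the 28 called (0.27 ± 0.08, adjusted p = 0.0496).

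Chromatin genes that act behind the fork rose in 6 of 9 cases in the untreated knock-in, with none lower (18.4% and 18.6% of all genes). Chaf1a, a subunit of the histone chaperone CAF-1, went from 4.19 ± 0.387 to 9.31 ± 0.935 CPM (1.15 ± 0.11 log2), Asf1b rose by 1.13 ± 0.19 log2, and the maintenance methylase Dnmt1, the partner of UHRF1, from 45.3 ± 1.37 to 56.2 ± 0.953 CPM (0.31 ± 0.05 log2). With CP775146, 4 of the 9 fell in wild type and 6 in the knock-in, where 22.3% and 19.1% of all genes fell. Dnmt1 fell by 0.39 and 0.44 log2.

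The 29 genes of nucleotide supply outside the 50 were mixed. In the untreated knock-in 10 rose and 3 fell (18.4% and 18.6% of all genes), with Ctps, which makes CTP, from 124 ± 5.08 to 173 ± 3.35 CPM. With CP775146, 8 rose and 11 fell in wild type (22.7% and 22.3% of all genes), and 8 rose and 5 fell in the knock-in (18.1% and 19.1%). The guanine nucleotide enzyme gene Impdh1 rose from 21.3 ± 1.11 to 59.2 ± 0.704 CPM in wild type, and in the knock-in from 25.9 ± 1.25 to 55.2 ± 2.66 CPM. Thymidine phosphorylase, Tymp, which breaks thymidine down, rose from 6.14 ± 0.701 to 28.5 ± 3.2 and from 3.73 ± 0.615 to 10.4 ± 0.971 CPM, and the mitochondrial serine enzyme gene Shmt2 by 0.72 and 0.51 log2. The interaction was called for 7 of the 29 (against 7.11% of all genes), among them Impdh1 (−0.38 ± 0.07), Tymp (−0.72 ± 0.16) and Shmt1 (0.30 ± 0.06). Shmt1 fell by 0.28 ± 0.04 log2 in wild type with CP775146 and lay at 0.01 ± 0.04 in the knock-in.

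Of 19 E2F and pocket protein genes, 8 were higher and 3 lower in the untreated knock-in (18.4% and 18.6% of all genes). The falls were near that share. Foxm1, a factor of the later cell cycle, went from 0.698 ± 0.147 to 2.62 ± 0.214 CPM, the repressor E2f7 from 0.171 ± 0.0179 to 1.49 ± 0.145 CPM and E2f4 from 54.9 ± 3.75 to 69.1 ± 2.27 CPM. With CP775146, 9 fell in each genotype, among them Rbl1 and Tfdp2 in both. Of all genes 22.3% fell in wild type and 19.1% in the knock-in. In the S-phase checkpoint list 5 of 14 rose and 2 fell with genotype in untreated cells, where 18.4% and 18.6% of all genes did, the cyclin gene Ccne1 from 2.54 ± 0.0453 to 8.09 ± 0.564 CPM while the checkpoint kinase gene Atr fell by 0.42 ± 0.05 log2. Mitosis genes rose with genotype in 19 of 20 cases in untreated and 20 of 20 in treated cells, where 18.4% and 20.5% of all genes rose. Their medians were 1.58 and 1.65 log2. With CP775146 6 of the 20 fell in each genotype, beside 22.3% of all genes in wild type and 19.1% in the knock-in. The topoisomerase gene Top2a was at 2.03 ± 0.179 and 8.98 ± 0.598 CPM in the untreated groups and at 0.905 ± 0.184 and 6.84 ± 1.03 CPM in the treated ones, with a called interaction of 0.76 ± 0.23 log2 (adjusted p = 0.0402). Mki67, an antigen of cycling cells, fell with CP775146 in both genotypes, and less in the knock-in. Its interaction was 1.49 ± 0.22 log2 (adjusted p = 2.57e-05).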

How the data were processed

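Deposited counts per gene were used for all 12 libraries. The authors made these raw counts with featureCounts 1.6.2, per the file headers, on Subread alignments to mm10 with an Ensembl release 83 annotation. Their processing notes, per the labels, name featureCounts 1.4.6-p4, cutadapt 1.9, FastQC 0.11.2 and edgeR 3.18.1. The headers show no strand or multi-mapping option, so by the tool's default reads over overlapping genes were not assigned and reads shared by near-identical copies may be lost or misplaced. Levels per kilobase use the exonic length in the same files, which covers all annotated exons of a gene and not 1 transcript. Levels per length are therefore uncertain between genes.

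Counts were tested with edgeR 4.0.16 (R 4.3.3): filterByExpr with a minimum count of 10 and total of 15, TMM scaling, 1 quasi-likelihood fit over the 4 groups, 5 contrasts, and Benjamini-Hochberg adjustment over 15664 genes at 0.05. Fold changes are given as log2 ± SE and levels as CPM, mean ± SD of 3 libraries. The test was checked on simulated data. It recovered 40 of 50 genes changed 1.5-fold, 35 of 50 changed 2-fold, 48 of 50 changed 3-fold and 49 of 50 changed 4-fold. Of 15464 unchanged genes it called 8. A gene not called may thus still have changed. Alternatives were RLE and total-count scaling, 2 other filters, a test against 1.5-fold, pairwise fits, DESeq2 1.42.0, limma 3.58.1 voom, a replicate block and leaving out each library. BLAST at 95% identity over 200 bases found copies. The 50 genes and all lists were chosen with earlier results of these data known. Genes valued in every library were, per comparison, the 4 largest called rises and falls, plus Pcna, Mcm2, Cdc6, Rrm1, Rrm2, Tk1 and Tyms. From each related list up to 3 genes with the smallest adjusted p were eligible. Counting precision is set by depth: 3 counts are 0.086 to 0.111 CPM. A result of 1 listed gene is not reported here.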

Additional observations from a re-analysis of the deposited data

Results flagged for a closer look

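The response to CP775146 differed between genotypes for Mcm6, with an interaction of −0.34 log2. Mcm6 and Rpa1 were the 2 of the 50 genes called lower in the interaction, a share near the 4.33% of all genes. For Mcm6, wild-type libraries were at 32.3 to 34.9 CPM untreated and 34.6 to 36.1 CPM treated. Knock-in libraries were at 57.5 to 60.5 and 48.4 to 49.6 CPM. The interaction lay between −0.37 and −0.30 in the 20 alternatives that gave a value, and its adjusted p was at most 0.00474 in all of them but the test against a 1.5-fold change, where it was 1.

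Rpa1 also differed, with an interaction of −0.28 log2. Its wild-type libraries were at 48.6 to 52.1 CPM untreated and 54.6 to 59.1 CPM treated, and its knock-in libraries were at 56 to 58.3 and 52.4 to 54.7 CPM. The interaction lay between −0.31 and −0.24 in the same alternatives, with an adjusted p of at most 0.0181 except in the 1.5-fold test.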

How the results depend on the processing

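No call among the 50 genes reversed in any of the 21 alternatives. A test against a 1.5-fold change kept 12 rises and 1 fall for genotype without CP775146, 9 and 1 with it, 0 and 2 for CP775146 in wild type, 0 and 0 in the knock-in, and 0 falls in the interaction. Of all genes, 2.78% rose and 1.81% fell in that test without CP775146, and 3.22% and 2.74% with it. For CP775146 the shares were 4.23% and 2.16% in wild type and 2.77% and 1.24% in the knock-in, and 0.0958% fell in the interaction. Total-count scaling gave medians of 0.48, 0.45, −0.26 and −0.33 log2 in the same order, against 0.098, 0.124, −0.104 and −0.074 for all genes. It gave 0 rises for CP775146 in wild type (15.1% of all genes) and 3 falls for genotype with CP775146 (11.9% of all genes). No filter and DESeq2 also gave 3 falls there, beside 11.7% and 18.7% of all genes. The filter of 5 CPM gave medians of 0.28 for genotype without CP775146 and −0.21 for CP775146 in the knock-in. Fits of only 2 groups, and limma voom, gave 2 rises for CP775146 in the knock-in (22.3% and 21.6% of all genes). Those 2-group fits gave 15 falls for CP775146 in wild type and 28 in the knock-in, against 19 and 25. Of all genes 19.6% and 22.4% fell in them. Spread between libraries was larger in wild type than in the knock-in, and the main fit shares its estimate between them. Calls of the main fit for CP775146 may thus be too many in wild type and too few in the knock-in. The 7-letter E2F form (without the first T) stood in 42.9% of the genes' promoters and 9.01% of all.

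Leaving out each library gave 30 to 33 rises, 3 falls and medians of 0.35 to 0.41 for genotype without CP775146, and 28 to 32 rises, 3 to 5 falls and medians of 0.29 to 0.36 with it. Of all genes 16.1% to 18.4% rose and 14.9% to 19.6% fell without CP775146. With it, 17.5% to 21% rose and 18.7% to 22.3% fell. CP775146 gave 2 to 4 rises, 13 to 18 falls and medians of −0.18 to −0.14 in wild type, and 1 rise, 22 to 27 falls and medians of −0.28 to −0.24 in the knock-in. In wild type 19.6% to 22.4% of all genes rose and 19.2% to 21.5% fell. In the knock-in 15% to 19.2% rose and 15.2% to 19.7% fell. The interaction had 0 to 1 rises, 2 to 3 falls and medians of −0.09 to −0.04, where 1.57% to 4% of all genes rose and 3.01% to 5.53% fell. Uncalled values changed sign: Tyms at −0.15 to 0.03 (wild type), −0.12 to 0.01 (knock-in) and −0.09 to 0.10 (interaction; 0.02 with total-count scaling), and Mcm2 at −0.01 to 0.17 and Tk1 at −0.20 to 0.02 (interactions).

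Same-numbered libraries did not deviate together (correlations −0.026 to 0.063, against −0.073 to 0.071 for different numbers). With so little variation between libraries, this check shows no pairing by number but cannot exclude it. With a replicate block no call was lost: 32 rises and 3 falls, 32 and 5, 3 and 19, 1 and 25, and 0 and 2 in the interaction. The shares of all genes were, in the same order, 18.4% and 18.4%, 20.4% and 21.9%, 22.6% and 22.2%, 18% and 18.8%, and 2.78% and 4.43%. Depth limits Cdc6, Cdc45 and Fen1, which fell below 10 counts in a library.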

Other observations

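Ctps, which makes CTP, rose by 0.53 ± 0.04 log2 in the treated knock-in against treated wild type (180 ± 0.962 against 125 ± 0.961 CPM). Rrm2b stood at 7.16 ± 1.11 and 7.29 ± 0.201 CPM. Per length Rrm2 was 18.6 ± 2.08 times Rrm2b in untreated wild type, 16.9 ± 2.72 in treated wild type, 11 ± 1.71 in the untreated knock-in and 7.87 ± 0.602 in the treated knock-in.

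The repressor gene E2f8 was at 2.52 ± 0.228 CPM in untreated wild type, 4.38 ± 0.656 CPM with CP775146, and 4.35 ± 0.605 and 4.34 ± 0.33 CPM in the knock-in. Its interaction was −0.81 ± 0.19 log2 (edgeR adjusted p = 0.00728).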
